A study of Mus musculus with 12 samples.

Results

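The miR-181 family in mouse is miR-181a-5p, miR-181b-5p, miR-181c-5p and miR-181d-5p, 4 of the 616 microRNAs listed for the embryonic gonad. The members were taken by name and not by a measured value, though with earlier results of these data known. All 4 were listed and passed the filter on low values (a mean deposited value of at least 5, which 513 microRNAs met). Small RNAs of CD1 mouse embryos, with no transgene or treatment named in the labels, were sequenced on a MiSeq instrument. The libraries are of primordial germ cells (PGCs), from which eggs and sperm later arise, and of the somatic cells (SC) of the gonad, in each sex on 3 successive embryonic days (E11.5, E12.5, E13.5). Each of the 12 combinations of cell type, sex and stage had 1 library, so there were 6 PGC and 6 SC libraries. Groups of about 80 gonads, freed of mesonephros, were pooled and split with anti-CD15 magnetic beads. Per the labels' protocols a germ cell stain gave an enrichment of 93 to 96% for PGCs and a purity of over 90% for the somatic fraction, which is a mixture of all the other cells of the gonad.

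MicroRNAs are short RNAs cut from hairpin precursors. They guide Argonaute proteins to messenger RNAs, mainly through the seed, bases 2 to 8 counted from the 5′ end, and lower the output of the paired messages. Members of a family share a seed and so can reach overlapping sets of targets. The miR-181 family is best known in lymphocytes, where miR-181a sets the sensitivity of T cell receptor signalling in the thymus, and in endothelium, where miR-181b dampens inflammatory signalling. The gonad at these stages goes from a form that looks the same in both sexes to a distinct ovary and testis, while PGCs finish their arrival and proliferate.

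The mature sequences are shown because the members differ by so little, which bears on how their reads can be told apart. They are RefSeq sequences on GRCm38.p6, written 5′ to 3′ with the seed in capitals.
miR-181a-5p: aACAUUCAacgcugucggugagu
miR-181b-5p: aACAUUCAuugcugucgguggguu
miR-181c-5p: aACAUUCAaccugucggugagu
miR-181d-5p: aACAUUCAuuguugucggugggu
Of the 526 listed microRNAs that matched a RefSeq mature sequence, exactly 4 carried the seed ACAUUCA, and they were these members. With positions counted from 1 at the 5′ end and the first-named member's base written first, miR-181a-5p and miR-181b-5p differed by A9U, C10U and A21G over their shared length. miR-181b-5p and miR-181d-5p differed by C12U and by length, 24 against 23 bases. miR-181a-5p and miR-181c-5p were 1 edit apart, at 23 against 22 bases. How the authors' counting assigned reads that fit more than 1 member is not given in the sources used here, so the split between miR-181b-5p and miR-181d-5p, and between miR-181a-5p and miR-181c-5p, is uncertain to that extent.

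The 4 members come from 3 pairs of hairpins. On GRCm38.p6, Mir181a-1 (chr1:137966455-137966541) and Mir181b-1 (chr1:137966639-137966718) lie on the plus strand with no overlapping gene, 98 bases apart. Mir181a-2 (chr2:38852735-38852810) and Mir181b-2 (chr2:38853830-38853918) lie on the plus strand inside the span of Nr6a1, a nuclear receptor gene transcribed from the minus strand, and of its plus-strand noncoding neighbour Nr6a1os. Mir181c (chr8:84178873-84178961) and Mir181d (chr8:84178716-84178787) lie on the minus strand, 86 bases apart, with no overlapping gene. The nearest protein-coding gene to Mir181d is Nanos3, which PGCs need for survival, on the same strand with 2164 bases between them. Mature miR-181a-5p and miR-181b-5p are identical from either of their hairpins, so their reads cannot be traced to chromosome 1 or 2, whereas miR-181c-5p and miR-181d-5p each have a single source. How the counting treated reads that fit both places is not given in the sources used here.

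Depth ran from 166804 microRNA reads in the female E12.5 PGC library to 1768825 in the female E11.5 SC library. Values are given in 2 ways. The deposited values are counts that the authors divided by 1 size factor per library, and RPM (reads per 1000000 microRNA reads) are the same counts scaled to an equal total of microRNA reads in every library. The deposited values do not even out the totals. They summed to 105730 in the female E12.5 PGC library and to 2158040 in the female E11.5 SC library. In every stage and sex the PGC sum was below the SC sum, so differences on that scale include those in total. The germ cell markers (9 of 9 microRNAs of the miR-290 to miR-295 cluster listed) summed to 67015 to 136697 RPM in 5 PGC libraries and to 221 to 5787 RPM in SC. The library labelled female E11.5 PGC stood apart with 2141 RPM, with miR-290a-3p at 0, and with 83830 RPM of the 5 mesenchymal markers, inside the SC range of 68816 to 114203 RPM. The main PGC results are also given without it. In the labelled SC libraries the 2 gonadal somatic markers, miR-202-5p and miR-202-3p, summed to 154 to 231 RPM on the first day and to 3006 to 19053 RPM on the later ones. In PGC they summed to 155 to 668 RPM up to E12.5, to 1063 RPM in male E13.5 and to 3054 RPM in female E13.5, the last above female E12.5 SC (3006 RPM). The summed RPM ranged, in PGC and SC, over 33 to 1663 and 290 to 2197 for 4 erythroid markers, 86.9 to 504 and 175 to 517 for 5 leukocyte markers, and 981 to 3430 and 117 to 3079 for 3 neural markers. The neural value of 3079 RPM belongs to the female E11.5 SC library, with none of the 3 at 0, whereas the other 5 SC libraries held 117 to 245 RPM, with miR-124-3p and miR-9-3p at 0. Those 2 microRNAs were at 0 in every PGC library as well, so the PGC neural sum was miR-9-5p alone.

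The family took a smaller share of microRNA reads in PGCs than in somatic cells. It made up 1.13% ± 0.204 (SD, n = 6 libraries) of all microRNA reads in PGC, from 0.799 to 1.40%, and 1.83% ± 0.182 (SD, n = 6) in SC, from 1.64 to 2.14%. The ranges did not overlap, and in each of the 6 stage-by-sex pairs the SC value was 1.42 to 2.26 times the PGC value. A lower level in PGC was not particular to the family. The median PGC minus SC log2 difference of all 513 microRNAs tested was −0.74 in RPM. Without the library labelled female E11.5 PGC the PGC share was 1.12% ± 0.227 (SD, n = 5), over the same range. miR-181a-5p was the most abundant member by mean RPM, at place 36 of the 616 microRNAs, followed by miR-181b-5p at 56, miR-181d-5p at 64 and miR-181c-5p at 218. These places compare RPM without a correction for how well each sequence is captured. In bulk fractions, fewer cells that express a microRNA and less of it per cell cannot be told apart.

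miR-181a-5p was the member that separated the cell types most clearly. In PGC libraries it stood at 4728, 3717 and 6384 RPM in females and at 3863, 4034 and 4762 RPM in males, in order of stage. In SC libraries it stood at 7297, 9686 and 11561 RPM in females and at 9726, 9101 and 10938 RPM in males. Every SC library was above every PGC library, with the female E13.5 PGC library the nearest from below and the female E11.5 SC library the nearest from above. These are the PGC library with the most miR-202 and the SC library with the most neural marker reads, and the part of either in the result was not tested.

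miR-181b-5p, from the same hairpin pairs as miR-181a-5p, was also lower in PGCs, and its PGC levels lay further below SC at the later stages than at E11.5. Its PGC values were 4365, 2680 and 2789 RPM in females and 3338, 2997 and 2205 RPM in males across the 3 stages. In SC it stood at 4860, 5301 and 5409 RPM in females and at 4290, 4831 and 5017 RPM in males. The groups overlapped at 1 point: the library labelled female E11.5 PGC, with a counting interval of 4248 to 4483 RPM, lay above the male E11.5 SC library, at 4127 to 4457 RPM, and their intervals overlapped.

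miR-181d-5p did not follow that order. In PGC it stood at 2556, 1493 and 4428 RPM in females and at 3918, 3019 and 5170 RPM in males. In SC it stood at 4197, 2935 and 4059 RPM in females and at 3464, 2209 and 3001 RPM in males. The highest value of all 12 libraries was that of male E13.5 PGCs and the lowest that of female E12.5 PGCs, so the PGC range enclosed the whole SC range.

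miR-181c-5p, the rarest member, lay between 102 and 483 RPM. Its PGC values were 206, 102 and 372 RPM in females and 268, 168 and 303 RPM in males, and its SC values were 483, 149 and 364 RPM in females and 389, 212 and 279 RPM in males. The counting intervals of PGC and SC overlapped in 4 of the 6 pairs, those of E12.5 and E13.5, and were separate in both E11.5 pairs. The female E12.5 PGC value rests on 17 reads, with an interval of 59.4 to 163 RPM. Both miR-181c-5p and miR-181d-5p, whose hairpins are neighbours, were lowest in RPM at E12.5 in both sexes and both cell types, although in male PGCs the counting interval of miR-181c-5p at E12.5 (114 to 239 RPM) overlapped that at E11.5 (221 to 321 RPM). On the deposited scale male SC did not have its lowest value at E12.5 for either member, with 271, 293 and 472 for miR-181c-5p and 2408, 3054 and 5075 for miR-181d-5p in order of stage.

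**Figure D1:**
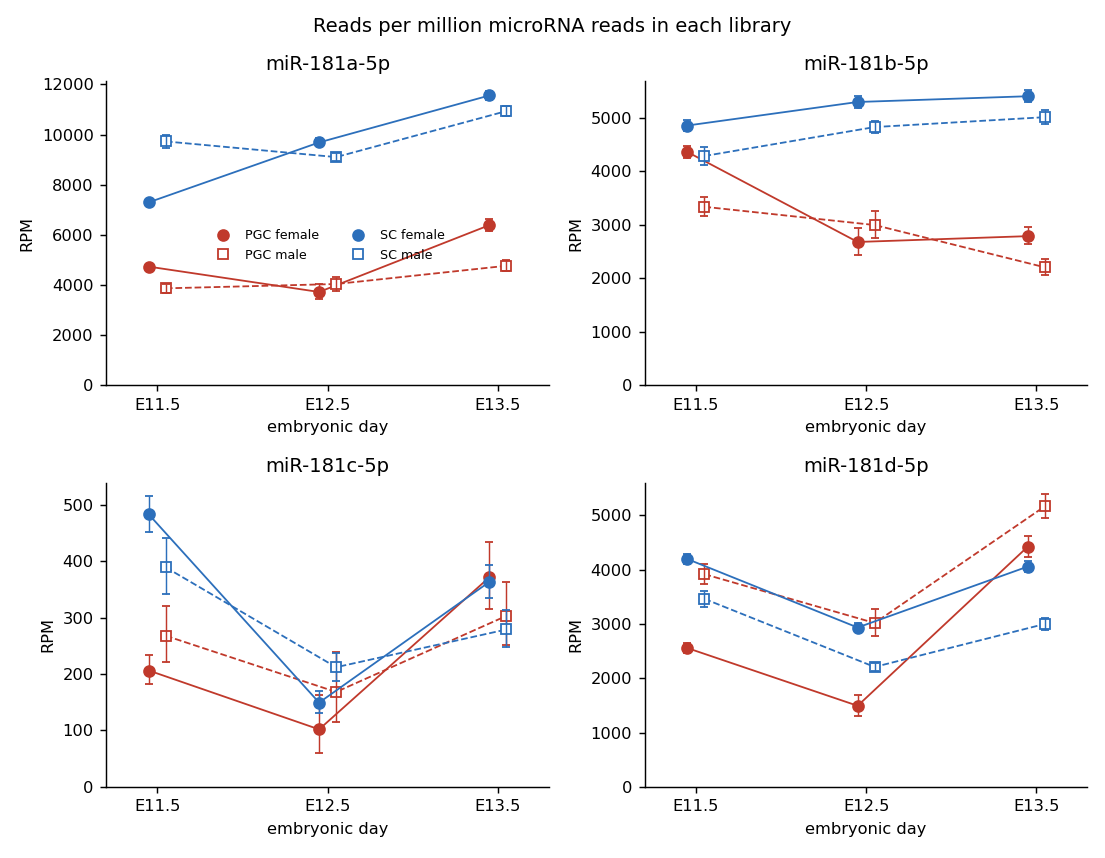
Level in RPM (vertical axis) of the 4 members against embryonic day. Red is PGC and blue is SC, filled circles with solid lines are female and open squares with dashed lines are male, each point is 1 library, and bars are exact 95% Clopper-Pearson intervals for counting error. Blue lies above red throughout for miR-181a-5p (lowest SC 7297, highest PGC 6384), whereas red and blue are mixed for miR-181c-5p and miR-181d-5p.

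Tested across all 513 microRNAs, all 4 members were lower in PGC than in SC on the deposited scale, and miR-181a-5p and miR-181b-5p were lower at equal totals. On the deposited scale 77.2% of all microRNAs tested were called lower in PGC, so 4 of 4 members is near the background. At equal totals 25.5% were called lower, and 2 of the 4 members were. The median log2 difference over all microRNAs was −2.57 for deposited values and −0.74 at equal totals, against −2.78 and −0.57 over the members.

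In limma's moderated test with the stage-by-sex pair as a block (Benjamini-Hochberg adjustment), the PGC minus SC difference of miR-181a-5p was −3.33 on the log2(deposited value + 1) scale (SE 0.62, adjusted p = 0.000245). At equal totals its difference was −1.09 (SE 0.24, adjusted p = 0.00858), a 2.14-fold lower level, in 6 of 6 pairs. The same test put miR-181b-5p at −2.95 on the deposited scale (SE 0.64, adjusted p = 0.000523) and at −0.72 at equal totals (SE 0.25, adjusted p = 0.0433), 1.65-fold lower, also in 6 of 6 pairs. At equal totals that was about the median difference of all 513 microRNAs (−0.74). The call on miR-181b-5p at equal totals is thin: it was lost when any 1 of the pairs of E12.5 or E13.5 was left out (adjusted p 0.0931 to 0.134) and in voom on the recovered reads (adjusted p = 0.0745). With both E12.5 pairs left out, miR-181a-5p lost its call at equal totals too (−1.003, adjusted p = 0.134). Without the pair of the library labelled female E11.5 PGC, both calls held, at −1.19 and −0.83 (adjusted p = 0.00458 and 0.0191 in the same limma test).

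The 2 members of the chromosome 8 pair were lower in PGC when deposited values were fitted, and neither passed the test at equal totals. miR-181c-5p differed by −2.61 on the deposited log2 scale (limma, SE 0.63, adjusted p = 0.00121) and by −0.42 at equal totals (95% interval −1.19 to 0.36, adjusted p = 0.353), with SC higher in 4 of 6 pairs. Without the pair of the library labelled female E11.5 PGC it differed by −0.25 at equal totals (limma, adjusted p = 0.518). miR-181d-5p differed by −2.26 on the deposited scale (limma, SE 0.64, adjusted p = 0.00383) and by −0.03 at equal totals (95% interval −0.68 to 0.63, adjusted p = 0.943). SC was higher for miR-181d-5p in 2 of 6 pairs, both female, at 1.64 times at E11.5 and 1.97 times at E12.5. Without the pair of the library labelled female E11.5 PGC the difference of miR-181d-5p at equal totals was 0.11 (limma, adjusted p = 0.762), the opposite sign. Each p-value here measures only the spread between these libraries, since nothing in the labels repeats an isolation.

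**Figure D2:**
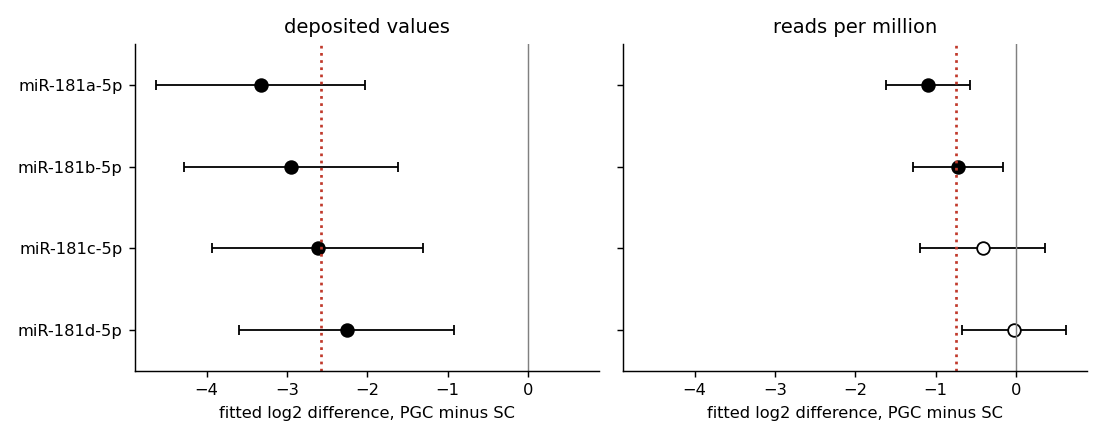
Fitted log2 difference, PGC minus SC (horizontal axis), for each member on deposited values (left) and RPM (right). Points are limma estimates over 6 pairs with 95% intervals, filled where the adjusted p was under 0.05, the grey line marks 0 and the dotted red line the median of the 513 microRNAs tested (−2.57 and −0.74). All 4 members are filled on the left, and miR-181a-5p and miR-181b-5p on the right.

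Within a library, the ratio of 2 members depends on neither the size factor nor the total. On average the make-up of the family leaned from miR-181a-5p towards miR-181d-5p in PGCs, but the ratio of these members did not pass the test given below. miR-181a-5p gave 40.6% ± 4.75 (SD, n = 6) of the members' reads in PGC and 53.0% ± 4.88 (SD, n = 6) in SC. Its shares overlapped, at 33.9 to 46.5% in PGC and 43.3 to 56.9% in SC. miR-181d-5p gave 29.6% ± 8.42 in PGC and 18.1% ± 4.00 in SC, and the PGC values ran from 18.7 to 41.6% and the SC values from 13.5 to 24.9%, so the groups overlapped. Without the library labelled female E11.5 PGC the PGC means were 40.8% ± 5.29 for miR-181a-5p and 31.2% ± 8.33 for miR-181d-5p (SD, n = 5). The chromosome 8 pair together, miR-181c-5p and miR-181d-5p, gave 19.96 to 44.0% of the members' reads in PGC and 14.8 to 27.8% in SC. Within that pair miR-181d-5p outnumbered miR-181c-5p in every library, by 8.68 to 19.6 times.

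**Figure D3:**
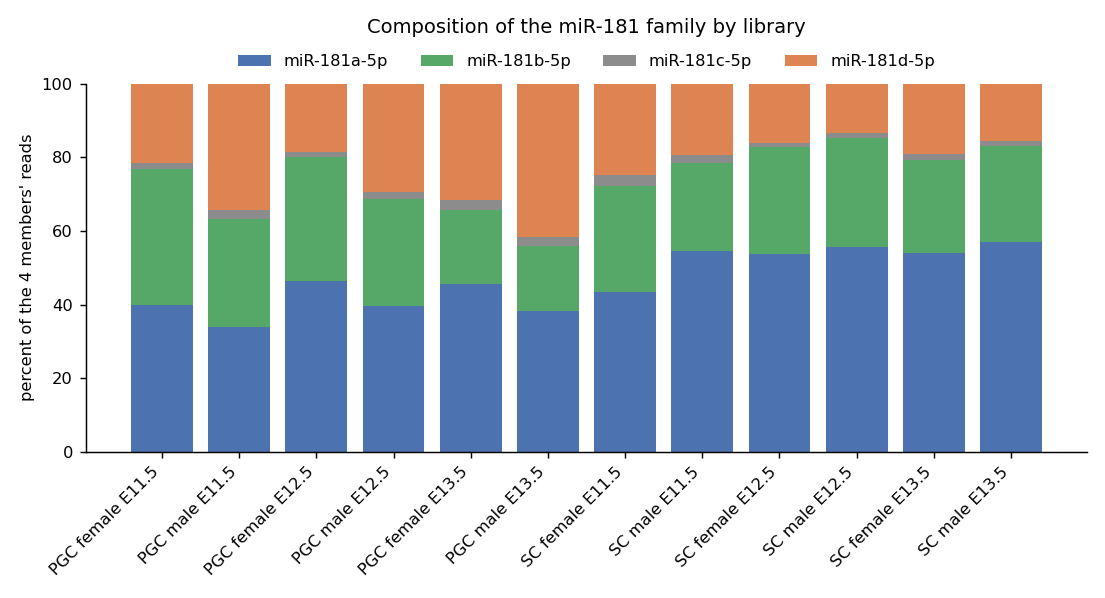
Percent of the reads of the 4 members (vertical axis) that each member gave in each of the 12 libraries, with the members stacked in the order of the legend. The share of miR-181d-5p is largest in male E13.5 PGCs (41.6%) and smallest in male E12.5 SC (13.5%).

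None of the 3 ratios to miR-181a-5p passed an exact two-sided permutation test over the 6 pairs, in which the smallest p possible is 0.03125. The ratio of miR-181d-5p to miR-181a-5p was 2.10 times as high in PGC as in SC, a mean log2 difference of 1.07 ± 0.79 (SD, n = 6 pairs, higher in 5 of 6, exact permutation p = 0.0625, adjusted over the 3 ratios 0.09375). For miR-181c-5p the mean log2 difference of the ratio was 0.68 ± 0.66 (SD, n = 6 pairs, 5 of 6, exact permutation p = 0.0625, adjusted 0.09375). For miR-181b-5p it was 0.37 ± 0.38 (SD, n = 6 pairs, 5 of 6, exact permutation p = 0.09375, adjusted 0.09375). The pair that went the other way for miR-181c-5p and miR-181d-5p was female E11.5, whose PGC library has the low germ cell markers. Without that pair the mean log2 difference was 0.93 for miR-181c-5p and 1.30 for miR-181d-5p.

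The ratio of miR-181d-5p to miR-181a-5p was higher in male than in female PGCs at every stage, and higher in female than in male SC at every stage. In PGC it was 0.541, 0.402 and 0.693 in females and 1.01, 0.748 and 1.09 in males, in order of stage. In SC it was 0.575, 0.303 and 0.351 in females and 0.356, 0.243 and 0.274 in males. miR-181d-5p itself had the same arrangement in RPM, with female values 0.652, 0.494 and 0.856 times the male ones in PGC and 1.21, 1.33 and 1.35 times in SC. On the deposited scale these were 1.58, 0.355 and 0.922 times in PGC, the opposite direction at E11.5, and 3.76, 1.46 and 1.18 times in SC.

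No member passed the test between the sexes. For miR-181d-5p at equal totals the fitted female minus male log2 difference in PGC was −0.62 (limma, 95% interval −1.14 to −0.09, adjusted p = 0.268) and in SC 0.37 (95% interval −0.15 to 0.90, adjusted p = 0.924). The test of the difference between those differences gave −0.99 (limma, SE 0.31, adjusted p = 0.414), a contrast added after the values had been seen. Without the library labelled female E11.5 PGC the PGC difference and the contrast were −0.62 and −0.99 (limma, adjusted p = 0.483 and 0.557). On the deposited scale the corresponding values were −0.31, 0.90 and −1.21 (adjusted p in limma 0.889, 0.822 and 1.00), and the first changed sign, to 0.27, when either E12.5 PGC library was left out, and was −0.80 without either E11.5 PGC library. The last was −0.62 without either E12.5 PGC library and −0.70 without either E11.5 SC library. In PGC, 0 of 4 members were called on either scale, where 0.39% of all microRNAs were called on deposited values and 0.0% at equal totals. In SC, 0 of 4 were called, against 1.17% and 0.0%, and for the difference between cell types 0 of 4, against 0.0% and 0.0%. At an unadjusted p under 0.05, limma at equal totals counted 1 member, miR-181d-5p, in PGC, 0 in SC and 1, again miR-181d-5p, for the difference. On the deposited scale it counted 0 in each. voom called 0 members in each of the 3 comparisons, with 1 at an unadjusted p under 0.05 for the difference and 0 in the other two.

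**Figure D4:**
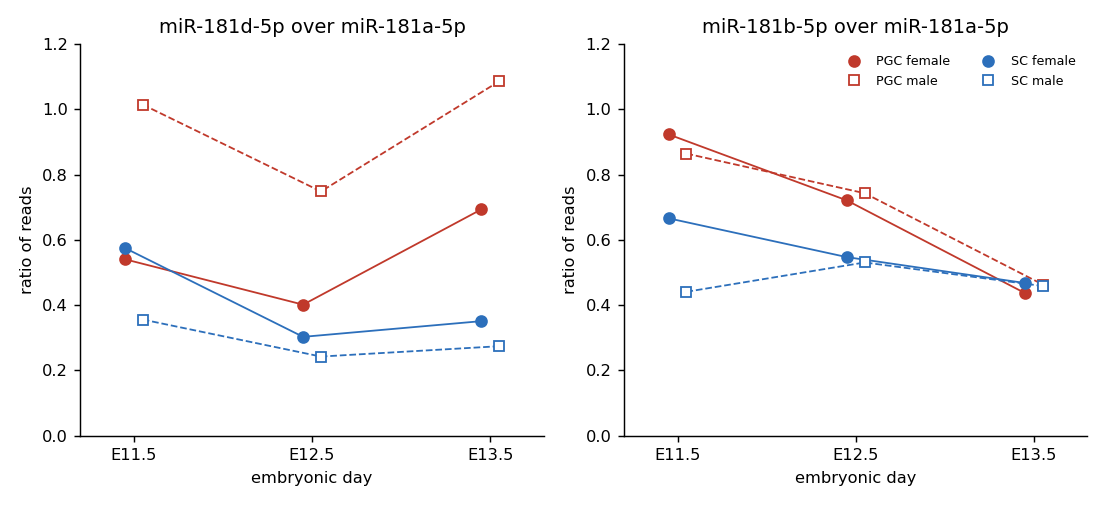
Ratio of reads within a library (vertical axis, no unit) of miR-181d-5p (left) and miR-181b-5p (right) to miR-181a-5p, against embryonic day, each point 1 library. Red is PGC, blue is SC, filled circles with solid lines are female and open squares with dashed lines are male. On the left male PGCs run highest (0.748 to 1.09) and male SC lowest (0.243 to 0.356), and on the right the PGC libraries go down from 0.923 and 0.864 on the first day to 0.437 and 0.463 on the last.

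Across the stages, miR-181b-5p in PGCs was the 1 member with a lower level at the end than at the start in both sexes, at 0.639 times its E11.5 RPM on E13.5 in females and 0.661 times in males. Over the same interval miR-181a-5p stood at 1.35 and 1.23 times, miR-181c-5p at 1.80 and 1.13 times and miR-181d-5p at 1.73 and 1.32 times. In SC miR-181b-5p was at 1.11 times its E11.5 level in females and 1.17 times in males, and miR-181a-5p at 1.58 and 1.12 times. miR-181c-5p and miR-181d-5p in SC were below their E11.5 levels in both sexes, at 0.753 and 0.717 times and at 0.967 and 0.867 times in RPM. Deposited values gave 0.513 and 1.74 times for miR-181c-5p and 0.659 and 2.11 times for miR-181d-5p, the opposite direction in males, and 0.759 and 2.84 times for miR-181b-5p, the opposite direction in females. In PGC females they placed the other 3 members below E11.5 as well (0.585 for miR-181a-5p, 0.781 for miR-181c-5p and 0.751 for miR-181d-5p). Within a library, the reads of miR-181b-5p per read of miR-181a-5p in PGC went from 0.923 and 0.864 at E11.5 through 0.721 and 0.743 to 0.437 and 0.463, in females and males. At E13.5 they thus reached the SC values of that stage, 0.468 and 0.459.

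The stage differences of the members' levels did not pass the test, and the ratio was not tested between stages. For miR-181b-5p in PGC, E13.5 minus E11.5 was −0.62 at equal totals (limma, 95% interval −1.21 to −0.03, adjusted p = 0.109) and −1.24 on the deposited scale (95% interval −2.83 to 0.35, adjusted p = 0.261). The deposited-scale value moved with the E11.5 libraries and was −0.36 without the library labelled female E11.5 PGC (limma, adjusted p = 0.966) and −2.12 without male E11.5 PGC (adjusted p = 0.101). The difference of that change between PGC and SC was −0.81 at equal totals (limma, SE 0.35, adjusted p = 0.242). Without the library labelled female E11.5 PGC the PGC change at equal totals was −0.47 (limma, adjusted p = 0.486). In PGC, 0 of 4 members were called between E13.5 and E11.5, where 32.9% of all microRNAs were called on deposited values and 28.8% at equal totals. In SC, 0 of 4 were called, against 10.9% and 7.99%, and for the difference between cell types 0 of 4, against 0.78% and 0.0%. At an unadjusted p under 0.05, limma counted 1 member, miR-181b-5p, in PGC at equal totals, and 0 in PGC on the deposited scale, in SC and for the difference. voom called 0 members in each of the 3 comparisons and counted 0 at an unadjusted p under 0.05.

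Several marker lists of other cell types were, like miR-181b-5p, higher in E11.5 PGCs than in later ones. The 5 mesenchymal markers summed to 57896 to 83830 RPM in E11.5 PGCs, to 10077 to 18297 RPM at E12.5 and to 8143 to 26533 RPM at E13.5. The 2 endothelial markers, miR-126a-3p and miR-126a-5p, summed to 27782 to 51442 RPM in E11.5 PGCs and to 4670 to 11230 RPM later, against 16088 to 37105 RPM in SC. The 4 erythroid markers summed to 774 to 1663 RPM in E11.5 PGCs and to 32.6 to 186 RPM later, and the 5 leukocyte markers to 481 to 504 and to 86.9 to 170 RPM. The gonadal somatic markers went the other way, with 155 to 264 RPM in E11.5 PGCs and 1063 to 3054 RPM at E13.5. So did the neural sum, miR-9-5p alone in PGC, with 981 to 1901 RPM and 3416 to 3430 RPM. None of the mesenchymal or endothelial markers was at 0 in a PGC library. The part of these lists in the stage difference of miR-181b-5p, and in the difference between cell types, was not tested.

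The microRNAs whose levels ran most alike across the 12 libraries differed by member. Likeness was measured as Pearson's r of log2(RPM + 1) over the 326 microRNAs with a mean deposited value of at least 50, as a description in which all points share library and depth. miR-181b-5p ran with miR-214-5p (r = 0.947), miR-199a-3p (0.943) and miR-199b-3p (0.943), of which miR-199a-3p is also on the list of mesenchymal markers. miR-181a-5p ran with miR-378a-3p (0.898), miR-708-3p (0.861) and miR-708-5p (0.821). miR-181c-5p ran with miR-17-3p (0.908), miR-32-5p (0.893) and miR-101a-3p (0.888), and miR-181d-5p with miR-106b-5p (0.914), miR-16-1-3p (0.880) and miR-17-3p (0.869). Between members, r was 0.808 for miR-181c-5p with miR-181d-5p and 0.778 for miR-181a-5p with miR-181b-5p, the pairs that share hairpin clusters. Across those pairs it was between −0.098 and 0.423.

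The opposite arms of the hairpins were listed for 5 of 6, and miR-181a-2-3p was not analysed here. A hairpin yields a 5p and a 3p strand, and as a rule 1 of them is kept and the other degraded. miR-181c gave both strands in similar numbers, with 3p reads at 0.779 to 2.18 times its 5p reads. The 3p strands of miR-181c and miR-181a-1 are shown because they share a seed of their own, CCAUCGA, which no other listed microRNA with a RefSeq match carried.
miR-181c-3p: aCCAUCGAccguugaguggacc
miR-181a-1-3p: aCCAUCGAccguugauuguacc
They differ by U16G and U19G, with the miR-181a-1-3p base first. miR-181a-1-3p reads came to 1.03 to 8.28% of those of miR-181a-5p.

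In PGCs the 3p arm of miR-181c outnumbered the 5p arm in all 6 libraries. The 3p share of miR-181c reads was 60.9, 68.5 and 55.8% in female and 60.7, 64.4 and 58.2% in male PGCs, in order of stage, a mean of 61.4% ± 4.51 (SD, n = 6), or 61.5% ± 5.03 (SD, n = 5) without the library labelled female E11.5 PGC. In SC it was 49.8, 61.4 and 47.8% in females and 51.9, 55.2 and 43.8% in males, a mean of 51.7% ± 6.14 (SD, n = 6). Within each stage and sex the PGC share was the higher one, while the ranges of the 2 groups overlapped and no test was run on the shares. The counting intervals of PGC and SC overlapped in 4 of the 6 pairs and were separate in female E11.5 and male E13.5. The widest was that of the female E12.5 PGC share, 54.4 to 80.5%, from 37 and 17 reads.

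**Figure D5:**
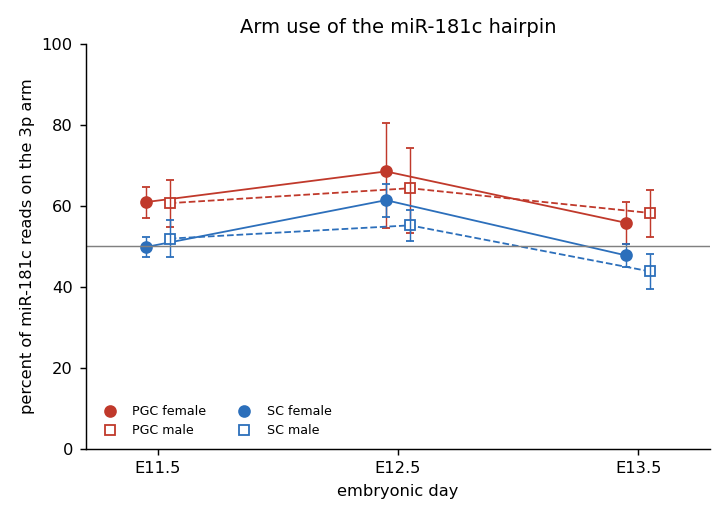
Percent of all miR-181c reads that came from the 3p arm (vertical axis) against embryonic day, each point 1 library with its exact 95% Clopper-Pearson interval and the grey line at equal use of both arms. Red is PGC, blue is SC, filled circles are female and open squares are male. All 6 PGC libraries lie above the line, from 55.8 to 68.5%, and the SC libraries lie on both sides of it, from 43.8 to 61.4%.

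miR-181c-3p stood at 222 to 469 RPM in PGC and 218 to 480 RPM in SC. Its PGC minus SC difference was −2.05 on the deposited log2 scale (limma, adjusted p = 0.00638) and 0.16 at equal totals (95% interval −0.59 to 0.91, adjusted p = 0.713). Of the 4 arms that passed the filter, 4 were called lower in PGC with deposited values and 1 at equal totals, miR-181b-2-3p, which is near the 77.2% and 25.5% of all microRNAs. That arm had 14 reads in the library labelled female E11.5 PGC and was at 0, under 5 reads, in the other 5 PGC libraries and in male E13.5 SC, against 16 to 25 reads in the other 5 SC libraries. Its fitted difference at equal totals (−2.76, limma, adjusted p = 0.035) therefore depends on the added 1 and is no measure of size. miR-181b-1-3p and miR-181d-3p reached at most 34 and 11 reads in any library.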

How the data were processed

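Small RNAs were measured in 12 libraries. Per the submitters' processing notes, FastQC, Trim Galore, Bowtie 1.1.2, GRCm38 and DESeq were used; the counting step per microRNA is not given in the sources used here. As a unit the deposited table holds normalized signal: counts that the authors divided by a size factor for each library (0.614 to 1.58). Of 7392 values, 100% were 0 or whole multiples (tolerance 1e-06) of the smallest value divided by 5, and none stood for 1 to 4 reads. Reads were recovered on that basis, 0 was read as under 5 reads, and RPM are reads per 1000000 of the column sum.

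Values were fitted as log2(value + 1) with limma 3.58.1 in R 4.3.3 (empirical Bayes with trend), on 513 microRNAs with a mean of at least 5, with Benjamini-Hochberg adjustment over all of them and calls at an adjusted p under 0.05. PGC and SC were paired by stage and sex (5 residual degrees of freedom); a shared pool of gonads for both fractions is not stated. Stage and sex were additive within cell type in 1 fit of all libraries (4 residual degrees of freedom), so a sex serves as the repeat of a stage. In all, 7 comparisons were tested, 1 of them added after the values were seen. Intervals on reads are Clopper-Pearson at 95% and hold for counting error alone, since no molecular identifiers separate PCR copies. The text names the 4 members, the other arms of their hairpins, the 3 microRNAs most like each member and the marker lists. The members and lists were chosen with earlier results of these data known. Alternatives were RPM, other added constants (5 and 0.5), other filters (none, or a mean of at least 50), no block, leaving out libraries, and voom (limma) on the recovered reads, added later. Scripts were tested on simulated data.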

Additional observations from a re-analysis of the deposited data

Results flagged for a closer look

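miR-181a-5p gave 43.3% of the members' reads in the female E11.5 SC library, far below the other 5 SC libraries, of which the nearest was at 53.6%. It was the 1 such value among 20 groups of 6 libraries looked at, and chance gives about 1 in 20. Its shares of miR-181b-5p and miR-181d-5p were 28.9 and 24.9%. That library was the deepest, and its 3 neural markers summed to 3079 RPM against 117 to 245 RPM in the other 5 SC libraries; their part was not tested.

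Between E11.5 and E13.5, 3 members had differences of opposite sign in PGC and SC in both sexes, at equal totals. The log2 change in PGC minus that in SC was −0.81 for miR-181b-5p, 0.96 for miR-181c-5p and 0.72 for miR-181d-5p. limma's test of these differences gave adjusted p = 0.242, 0.431 and 0.331. On the deposited scale the fitted differences were −1.79 for miR-181b-5p, −0.02 for miR-181c-5p and −0.26 for miR-181d-5p, so the last 2 turned direction (limma, adjusted p = 0.363, 0.995 and 0.932). The ratio of miR-181d-5p to miR-181a-5p did the same, with a difference of 0.77 on the log2 scale that was not tested.

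At all 3 stages the female to male difference of miR-181d-5p at equal totals had opposite signs in PGC and SC, by −0.99 on the log2 scale (limma, adjusted p = 0.414). For the ratio of miR-181d-5p to miR-181a-5p the difference was −1.27 and was not tested.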

How the results depend on the processing

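The tally of single members took in all members for PGC versus SC. Between the stages it took in miR-181b-5p in PGC alone, and between the sexes miR-181d-5p alone. Recomputed differences kept their direction and side of the threshold in 214 cases. In 9 they kept their direction but lost the call, and in 7 they changed sign. A left-out pair was counted once for PGC versus SC only. In the sex comparisons, leaving out either sex of a stage gave the same difference, and both were counted. Many differences could not move, since a library outside a comparison does not enter it. The PGC stage difference of miR-181b-5p thus stayed at −1.24 on the deposited scale with any 1 SC or E12.5 PGC library left out. The tally thus overstates how firm the results are. Of the recomputed counts of called members, 217 were as before, most of them 0, and 7 were lower. The 21 recomputed ratios kept their direction. The count of members lower in PGC was 4 on the deposited scale and 2 in RPM. The latter was 1 in voom on the recovered reads, 1 to 2 when each library in turn (with its partner) was left out, and 0 without both E12.5 pairs. Without the replicate block it was 2, and 4 on the deposited scale: dropping the pairing changed no count of calls. The sign changes in the tally were all of miR-181d-5p. Differences left out of the tally changed sign between the scales for other members too. In PGC, E13.5 minus E11.5 was −0.25 on deposited values and 0.37 at equal totals for miR-181a-5p. It was −0.10 and 0.51 for miR-181c-5p and −0.02 and 0.60 for miR-181d-5p, whereas miR-181b-5p kept its sign. The PGC minus SC difference of miR-181d-5p at equal totals ran from −0.19 to 0.16 with 1 library and its partner left out. It was 0.093 without both E12.5 pairs and 0.10 without both E11.5 pairs. Its female minus male difference in PGC on the deposited scale ran from −0.80 to 0.27, and was 0.27 without both E12.5 PGC libraries; the cause was not tested. The edgeR test on recovered reads was not run; no deposited value stands for 1 to 4 reads. Depth limits miR-181c-5p most, with 17 and 31 reads in the E12.5 PGC libraries.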
